A study of Mus musculus with 6 samples.

Results

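The genes of polyamine synthesis and breakdown were followed in mouse skeletal muscle through the first day after electrical pacing. The members were the probes annotated with exactly 1 of the symbols Odc1, Sat1, Amd1, Amd2 and Oaz1. They came to 7 probes for 4 genes, of 13872 probes and 3939 named genes on the array: 2 probes each for Odc1, Amd2 and Oaz1, and 1 for Sat1. Amd1 had no probe with a single symbol and was dropped. The set was proposed with the gene means of these same arrays in view (Sat1 and Amd2 at 8 h, Odc1 and Amd2 at 24 h), that is, the genes were chosen by their differences from sham and ratios to Pre, so every value below is a description and carries no test.

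Total RNA was measured in 6 groups with 1 array of 2 channels each. In 5 groups the mice carried an implanted pacer that stimulated the muscle for 3 h, and muscle was taken as stimulation ended (called P0, at 0 h) or 1 h (P1), 3 h (P3), 8 h (P8) or 24 h (P24) later. In the sham group the pacer was implanted but inactive, and its muscle was matched in time to P0, so a difference from sham at a later time mixes pacing with elapsed time. The second channel of every array held reference RNA from control muscle, called Pre. The labels used here do not say which muscle was taken, the strain, sex and age of the mice, or how many mice stood behind each RNA. With 1 array per group there was no spread between animals and no p-value could be formed. Where a member had 2 probes, the SD between probes is given with most of its means. It measures the agreement of spots and not of mice.

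Polyamines (putrescine, spermidine and spermine) are small positively charged molecules that bind RNA and support translation and cell growth. Ornithine decarboxylase, encoded by Odc1, makes putrescine, and S-adenosylmethionine decarboxylase, encoded by Amd1 and its copy Amd2, makes the aminopropyl donor for the longer polyamines. Sat1 encodes the acetyltransferase that marks spermidine and spermine for breakdown or export. Oaz1 encodes antizyme, which binds ornithine decarboxylase and sends it to the proteasome, and whose translation depends on polyamines. In skeletal muscle this pathway is known for its response to androgens and to changes in muscle mass.

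Values are log2 ratios of a muscle sample to Pre. A value of 1 is 2-fold above Pre and a value of -1 is 2-fold below it. The dyes were not stated, so the direction takes the likely reading of the deposited ratio as sample over Pre, since the labels name Pre as the reference; with the ratio turned, every sign, and every rank from the top or bottom, would turn with it. A gene's value is the mean of its measured probes, and a difference of 2 arrays is called 2-fold where its size reached 1. The 4 members all had a value on all 6 arrays, as did 3180 of the 3939 genes, which are the genes used for every share and rank of genes below. The arrays differed in spread: the robust SD of the log2 ratios was 0.293 at P0, 0.176 at P1, 0.445 at P3, 0.242 at P8 and 0.40 at P24, against 0.495 in sham. Measured probes made up 87.3% to 95.2% of each array. The sham array stood apart in form, with 485 empty cells and 154 values shared within a print run, against 0 empty cells and at most 8 shared values on a paced array. The values of the members are therefore also given against Pre, without sham.

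Tissue markers were set against sham as a check on what else moved. Of 10 skeletal muscle fibre markers, 9 were measured; none was 2-fold from sham at any time, and their median difference lay between -0.14 at P3 and -0.06 at P24. At P0, 2 were above sham and 7 below. The 2 above were Myh4 at 0.78 and Ckm at 0.54, with sham itself at -0.57 and -0.49 against Pre. Myh4 was still 0.67 above sham at P3. Ratios to Pre do not show whether a cell type is present. The 2 measured macrophage markers of 10 had medians from -0.04 to 0.23, the 5 measured fibroblast markers of 7 from -0.58 to 0.21, and the 3 measured endothelial markers of 6 from 0.11 to 0.34. Within these lists Pdgfra of fibroblasts stood at -1.59 from sham at P3 and Cdh5 of endothelium at 1.19, and against Pre Pdgfra stood at -1.23 and Lum at -1.12 at P3, with Lum at -1.38 at P24. The 3 measured smooth muscle markers of 5 had medians from -1.04 to -0.63, with Actg2 at 2.52 against Pre in sham itself and 2-fold below sham at all 5 times, and Acta2 at -1.04 from sham at P8. The 2 fat cell markers of 5 had medians from -0.43 to 0.11, and the single red cell marker, Hba-a1, lay between -0.44 and -0.12. The single Schwann cell marker with a value lay between -0.43 and 0.06 and had none at P24. No neutrophil or satellite cell marker had a value on both arrays of a comparison. Their part in the results below was not tested. In these whole-muscle samples a change in the make-up of the tissue and a change in RNA per cell cannot be told apart.

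The members did not move as a block. Odc1, which makes putrescine, was far above Pre at P24. Sat1, which acetylates the longer polyamines, was above Pre on every paced array and near Pre in sham. The Amd2 probes were below Pre on all 6 arrays and lowest at P8 and P24. The Oaz1 mean stayed near Pre after pacing while sham lay above it. Probe 8120 of Oaz1 showed this pattern, and probe 10169 did not at P3, P8 and P24.

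**Figure D1:**
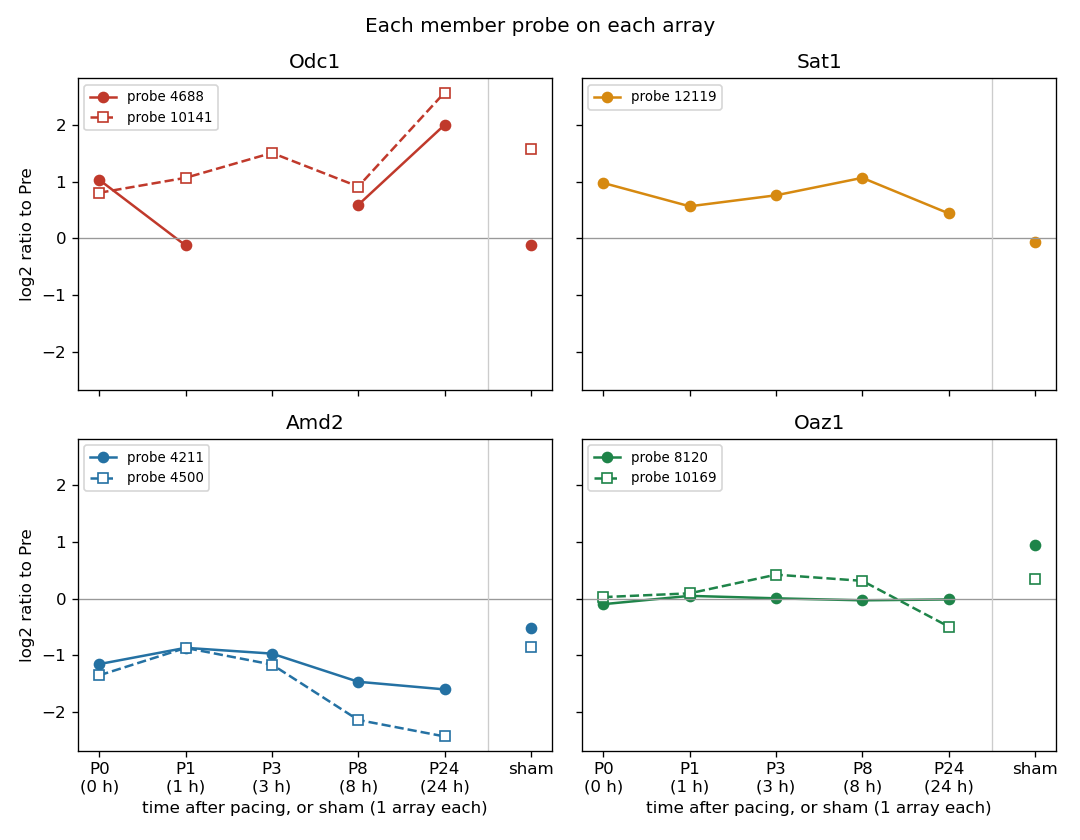
Log2 ratio to Pre (y axis) of each of the 7 member probes on the 5 paced arrays, in order of time after pacing, and on the sham array at the right (x axis). Each point is 1 probe on 1 array, and lines join the paced arrays of 1 probe. Both Odc1 probes are highest at P24, at 2.0 and 2.57, and both Amd2 probes are lowest at P24, at -1.60 and -2.43. No point is drawn for Odc1 probe 4688 at P3, where the deposited value was 0.

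Odc1 lies on chromosome 12 from 17544808 to 17551502 in GRCm38.p6. Its probe 4688 stood at a log2 ratio to Pre of 1.03 at P0, -0.13 at P1, 0.59 at P8 and 2.0 at P24, against -0.12 in sham; at P3 its deposited ratio was exactly 0 and was treated as not measured. Its probe 10141 stood at 0.80 at P0, 1.07 at P1, 1.5 at P3, 0.91 at P8 and 2.57 at P24, against 1.57 in sham. Both probes were highest at P24. They placed sham differently: sham was near Pre on probe 4688 and about as high as the P3 sample on probe 10141.

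Set against sham, the P24 sample was the time at which both Odc1 probes were higher. Probe 4688 was 4.33-fold higher at P24 than in sham and probe 10141 was 1.99-fold higher, and the gene mean was 2.94-fold higher (log2 difference 1.55, probe SD 0.79, 2 probes). Of the 3180 genes, 15 had a larger difference. At P0 the probes stood on opposite sides of sham, with probe 4688 at a log2 difference of 1.15 and probe 10141 at -0.77, so the mean of 0.19 hides a probe SD of 1.36. At P8 they did so again, at 0.71 and -0.66. At P1 the differences were -0.01 and -0.51. At P3 the difference of means was 0.78, but that set 1 probe at P3 against the mean of both in sham; on probe 10141 alone the difference was -0.07.

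Against Pre, which avoids the sham array, the gap between the Odc1 probes was smaller at P0, P8 and P24 than against sham, but larger at P1. The gene mean was 0.92 at P0 (probe SD 0.16), 0.47 at P1 (probe SD 0.84), 0.75 at P8 (probe SD 0.23) and 2.28 at P24 (probe SD 0.40). The value at P24 is 4.86-fold above Pre, and 8 of the 3180 genes were higher on that array (with the ratio turned, 0.206 of Pre and 8 genes lower). At P3 the 1 measured probe stood at 1.5. In order of level the arrays ran P24, P3, P0, P8, sham and P1, and the place of P3 rests on 1 probe. P0, P8, sham and P1, at 0.92, 0.75, 0.73 and 0.47, differed by less than the probe SD of 1.19 in sham. Their order is therefore not resolved. With all arrays scaled to a common robust SD, P1 stood at 0.92 and sham at 0.51.

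The step from P8 to P24 was the largest of Odc1 between consecutive arrays and uses no sham value. The P24 sample was 2.89-fold above the P8 sample (log2 difference 1.53), at 1.41 on probe 4688 and 1.65 on probe 10141 (probe SD 0.17). Only 2 of the 3180 genes had a larger difference at this step, where 0.786% of genes were 2-fold apart in either direction. After all arrays were scaled to the same robust SD, this difference was 0.90, under the 2-fold threshold. The step from P3 to P8, -0.75 from means and -0.59 on probe 10141, came to -0.01 with zeros kept as values.

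Probe agreement puts these gaps in context. Among genes with exactly 2 probes, the median gap between the probes' differences from sham was 0.46 log2 units at P0, 0.36 at P1, 0.39 at P8 and 0.40 at P24. The Odc1 gap was 1.92 at P0, 0.50 at P1, 1.37 at P8 and 1.12 at P24. It exceeded the gap of 97.3% of 591 such genes at P0, of 94.8% of 648 at P8 and of 87.7% of 586 at P24. Against Pre in sham alone, the 2 Odc1 probes were 1.69 apart. In differences from sham, the Amd2 gap was 0.49 or less at all 5 times, and the Oaz1 gap ran from 0.13 at P24 to 1.02 at P3. Against Pre, the Amd2 gap was 0.67 at P8 and 0.83 at P24. It exceeded the gap of 91.9% of 666 genes with 2 probes at P8 and of 87.0% of 598 at P24. On the other paced arrays it was 0.20 or less. The Odc1 gap against Pre at P1 was 1.19 and exceeded that of 98.9% of 643 such genes.

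**Figure D2:**
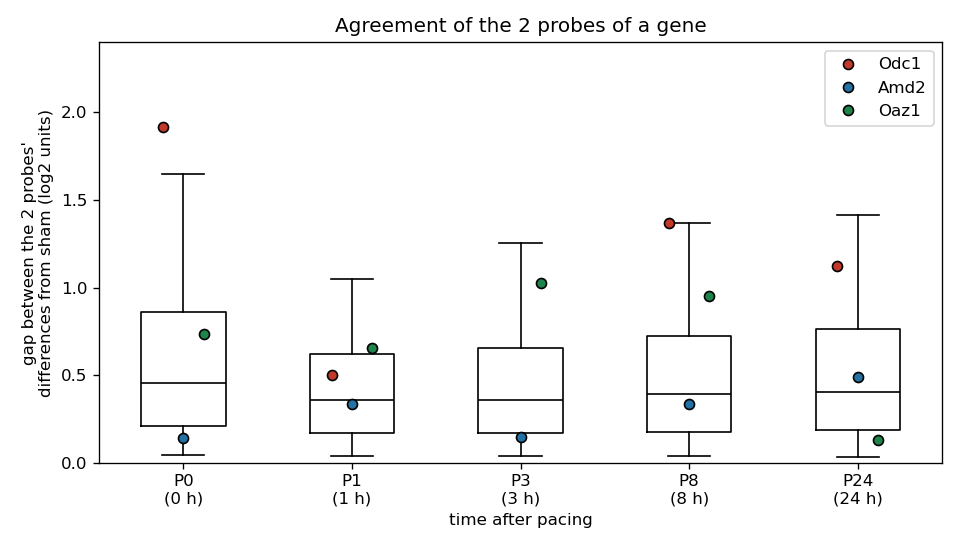
Gap between the 2 probes of a gene in their log2 differences from sham (y axis) at each time after pacing (x axis), for genes with exactly 2 probes measured on both arrays. Boxes run from the lower to the upper quartile with the median as a line, whiskers reach the 5th and 95th percentiles, and points mark Odc1, Amd2 and Oaz1. Odc1 stands above the upper whisker at P0, at 1.92, and has no point at P3, where 1 of its probes was not measured.

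Sat1, the polyamine acetyltransferase gene, lies on chromosome X from 155213126 to 155216449 in GRCm38.p6 and had 1 probe, 12119. It stood at 0.97 at P0, 0.56 at P1, 0.76 at P3, 1.07 at P8 and 0.44 at P24, against -0.06 in sham. All 5 paced samples were above sham, with the highest values at P0 and P8 and the lowest at P24. No second probe checks this order.

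The largest Sat1 difference from sham was 2.18-fold at P8, and 31 of the 3180 genes had a larger one. Sat1 was 2.05-fold above sham at P0, where 88 genes were higher. It was 1.54-fold above sham at P1 (178 genes higher), 1.76-fold at P3 (81) and 1.42-fold at P24 (537). Against Pre the gene was 2.09-fold higher at P8 and 1.97-fold higher at P0. The spread between probes of a gene in differences from sham (pooled over genes with several probes) was 0.53 log2 units at P0, 0.38 at P1, 0.42 at P3, 0.45 at P8 and 0.52 at P24. The Sat1 difference was larger than that spread at P0, P1, P3 and P8, while its 0.50 at P24 was not. The comparison is no test. The spread comes from other genes and does not give the error of the single Sat1 probe. Sat1 was also chosen with its P8 value in view. From P8 to P24 Sat1 differed by -0.63, opposite in sign to Odc1 over the same step; after that scaling the Sat1 value was -1.14. At P1, scaling moved the difference from sham to 1.15, past 2-fold.

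The Amd2 probes are uncertain as to the gene. Amd2 lies on chromosome 10 from 35708691 to 35711891 and Amd1 on the same chromosome from 40287458 to 40302188, both in GRCm38.p6. The sequences around their RefSeq transcription starts are shown because they bear on which gene an Amd2 spot reads. Each line gives 30 bases before and 30 from the start, on the minus strand, with the stretch common to both genes in capitals.
Amd2, chr10:35711862-35711921: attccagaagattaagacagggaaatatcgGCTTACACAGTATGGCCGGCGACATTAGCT
Amd1, chr10:40302159-40302218: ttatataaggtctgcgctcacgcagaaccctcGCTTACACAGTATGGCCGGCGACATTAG
The common stretch began at base 1 of Amd2 and base 3 of Amd1 and went on for 48 identical bases, to the end of the Amd1 window. Of 32851 RefSeq start windows of 300 bases, these 2 alone held it. In the 100 bases before it, 26 were identical between the genes. The genes were thus identical over this stretch of the transcript and not in the DNA before it. The sequences of the spots themselves were not used here, and binding of Amd1 RNA to the Amd2 spots was not tested.

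Both Amd2 probes were below Pre on every array. Probe 4211 stood at -1.15 at P0, -0.87 at P1, -0.97 at P3, -1.46 at P8 and -1.60 at P24, against -0.51 in sham. Probe 4500 stood at -1.35 at P0, -0.87 at P1, -1.16 at P3, -2.14 at P8 and -2.43 at P24, against -0.85 in sham. On each probe sham was closer to Pre than any paced sample, though P1 differed from it by only -0.02 on probe 4500, and P8 and P24 were farthest from it.

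At P8 the Amd2 mean was -1.80, or 0.287 of the Pre level (probe SD 0.48), and none of the other 3179 genes was lower on that array (with the ratio turned, 3.48-fold above Pre and none higher). At P24 it was -2.01 (0.248 of Pre, probe SD 0.59) and 1 gene was lower. At P0 it was -1.25 (probe SD 0.14) with 10 genes lower, at P1 -0.87 (probe SD 0.001) with 7 lower, and at P3 -1.06 (probe SD 0.14) with 49 lower. In sham it was -0.68 (probe SD 0.24), with 229 genes lower. Amd2 was thus below Pre also on the 1 array of muscle with an inactive pacer, which had the widest spread. With all arrays scaled to a common robust SD, its sham value was -0.48. The reason for the sham value was not tested. From the lowest level upward the arrays ran P24, P8, P0, P3, P1 and sham. Taken probe by probe, P24 differed from P8 by -0.21 (probe SD 0.11), at -0.13 on probe 4211 and -0.29 on probe 4500. With all arrays scaled to a common robust SD, that difference was 0.84. P1 differed from sham by -0.19, less than the probe SD of 0.24.

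Against sham the Amd2 mean was lower at all times, and it passed 2-fold at P8 and P24. The log2 difference was -0.57 at P0 (probe SD 0.10), -0.19 at P1 (0.24), -0.38 at P3 (0.10), -1.12 at P8 (0.24) and -1.33 at P24 (0.35). At P8 35 genes and at P24 29 genes had a more negative difference. The step between P3 and P8 was -0.74 (probe SD 0.34). The steps from P0 to P1, P1 to P3 and P8 to P24 were 0.38, -0.20 and -0.21, and each changed sign under the same scaling, to -0.22, 0.87 and 0.84. Scaling moved the difference from sham to -1.22 at P1 and to -2.10 at P8.

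Oaz1, the antizyme gene, lies on chromosome 10 from 80826656 to 80829290 in GRCm38.p6. Probe 8120 stood at -0.10 at P0, 0.05 at P1, 0.00 at P3, -0.03 at P8 and -0.02 at P24, against 0.95 in sham. Probe 10169 stood at 0.03 at P0, 0.09 at P1, 0.42 at P3, 0.31 at P8 and -0.49 at P24, against 0.34 in sham. Probe 8120 was level with Pre on all paced arrays and set apart in sham, whereas probe 10169 departed from Pre most at P24 and P3.

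The Oaz1 mean was below sham at every time but never 2-fold below. The log2 difference was -0.68 at P0 (probe SD 0.52), -0.57 at P1 (0.46), -0.43 at P3 (0.72), -0.50 at P8 (0.67) and -0.90 at P24 (0.09). At P3 and P8 the difference was smaller than the SD between its own probes. Against Pre the mean ran from -0.25 at P24 to 0.21 at P3, and it was 0.64 in sham. The probes differed here. On probe 8120 the paced values lay between -0.10 and 0.05, against 0.95 in sham, while probe 10169 was 0.08 above sham at P3, -0.03 from it at P8 and -0.83 from it at P24.

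A pseudogene of Oaz1 had 2 probes of its own, which are given because antizyme RNA may bind them; they are not among the members. Oaz1-ps probe 7526 stood at -0.66 at P0, -0.13 at P1, -0.04 at P3, -0.24 at P8 and -0.10 at P24, against 0.51 in sham. Oaz1-ps probe 9856 stood at -0.01 at P0, 0.09 at P1, 0.51 at P3, 0.05 at P8 and 0.27 at P24, against 0.32 in sham. All 4 antizyme-like probes were above Pre in sham, by 0.32 to 0.95. Averaging the 4 probes gave Oaz1 differences from sham of -0.72 at P0, -0.31 at P3 and -0.61 at P24.

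Counts of members called 2-fold are set here against all genes. Against sham, 1 of 4 members was called at P0 (Sat1, where 5.97% of genes were called), 0 at P1 (1.32%), 0 at P3 (2.14%), 2 at P8 (Sat1 higher and Amd2 lower, 3.24%) and 2 at P24 (Odc1 higher and Amd2 lower, 5.82%). Against Pre, 1 member was called at P0 (Amd2, 2.17% of genes), 0 at P1 (0.849%), 2 at P3 (Odc1, on 1 probe, and Amd2, 4.97%), 2 at P8 (Sat1 and Amd2, 2.36%), 2 at P24 (Odc1 and Amd2, 5.41%) and 0 in sham (3.33%). Because these contrasts chose the members, nothing is read from the counts. All differences from sham share the 1 sham array, and all ratios share Pre. The median difference of the members from sham was -0.19 at P0, -0.22 at P1, 0.20 at P3, -0.24 at P8 and -0.20 at P24, beside medians of all genes from 0.02 to 0.08.

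**Figure D3:**
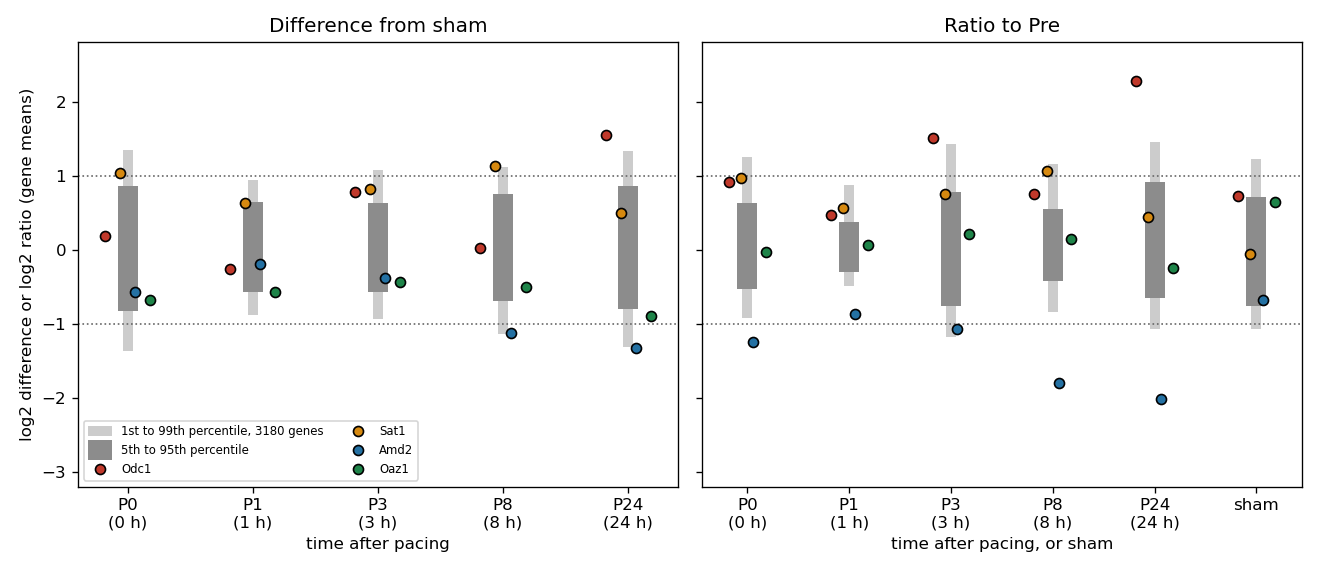
Gene means of the 4 members as points, beside all 3180 genes as bars from the 1st to the 99th and from the 5th to the 95th percentile, as the log2 difference from sham (left) and the log2 ratio to Pre (right) on the y axis, for each array on the x axis. Dotted lines mark 2-fold. Amd2 lies below the 1st percentile against Pre at P8, at -1.80, and at P24, at -2.01, and Odc1 lies above the 99th percentile at P24, at 2.28.

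The genes around the members were described from lists of polyamine enzymes and transport, arginine and ornithine supply, S-adenosylmethionine and methionine salvage, and eIF5A with its hypusine modification. Of 51 listed genes 15 had a probe, and 11 to 15 had a value in each comparison with sham. Against sham, 1 of 15 was called at P8, Mtr, where 3.24% of all genes were called, and 0 at each of the other times. Mtr, methionine synthase, stood at a log2 ratio to Pre of -0.22 at P0, -0.27 at P1, -0.99 at P3, 0.01 at P8 and -0.89 at P24, against -1.0 in sham. The difference from sham at P8 was 1.01. Against Pre, 1 of 14 was called at P3, Oat, where 4.97% of all genes were called, and 0 at each of the other times or in sham. Oat, the ornithine aminotransferase gene, stood at 1.07 at P3, against 0.69 in sham.

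The list median against sham was -0.01 at P0 (5 of 11 genes above sham), -0.20 at P1 (2 of 13), 0.01 at P3 (8 of 14), -0.05 at P8 (7 of 15) and -0.12 at P24 (6 of 13). Against Pre it was 0.17 at P0, 0.07 at P1, 0.17 at P3, 0.22 at P8 and -0.17 at P24, and 0.24 in sham. Among all genes with a value in the same comparison with sham, 53.1% to 57.8% were above sham. The other named neighbours were chosen after their values were seen, for their place next to the members in the pathway. Srm, spermidine synthase, which uses the products of both decarboxylases, stood at 0.34 at P1, 0.95 at P3, 0.72 at P8 and 0.98 at P24, against 0.56 in sham, and had no value at P0. It was above Pre wherever measured, and its difference from sham was 0.42 at P24. Eif5a, whose protein carries the spermidine-derived hypusine, stood at 0.25 at P0, -0.16 at P1, -0.33 at P3, 0.21 at P8 and 0.76 at P24, against -0.06 in sham, as the mean of 2 probes. It was highest at P24, like Odc1, while the differences of its 2 probes from sham lay 0.80 apart at P0 and 0.19 at P1. Their gap at P24 is not given here, so the likeness to Odc1 rests on the mean of the probes. Oaz2, a second antizyme gene, stood at -0.34 at P0, 0.04 at P1, 0.23 at P3, -0.27 at P8 and -0.34 at P24, against 0.24 in sham. Atp13a3, a polyamine transporter, was closest to sham at P0, at -0.03, and farthest at P24, at 0.43; against Pre it stood at 0.67 at P24, with sham at 0.24.

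On the methionine side, Ahcy, which clears S-adenosylhomocysteine, was below sham at all times, with the log2 difference at -0.95 for P0 and -0.26 for P24, with sham itself at 0.98. Adi1, of methionine salvage, was also below sham at all times, from -0.51 at P3 to -0.09 at P1, with 2 probes, and below Pre on the 5 paced arrays, with sham at 0.01. Slc7a2, a transporter of arginine, lysine and ornithine, stood at 0.98 against Pre at P0 and -0.17 at P24, against 0.59 in sham. None of these passed 2-fold.

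**Figure D4:**
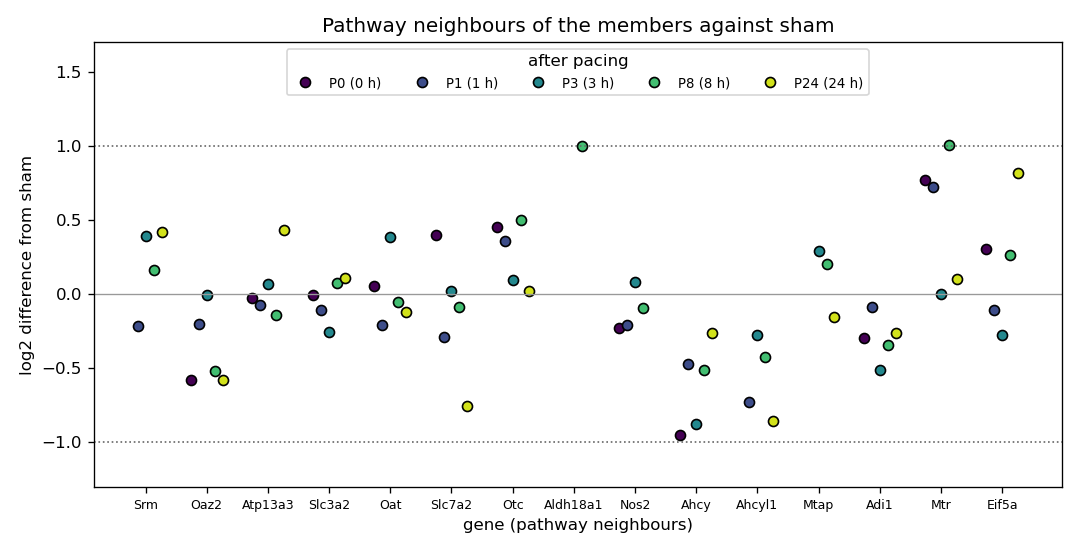
Log2 difference from sham (y axis) of the 15 listed pathway neighbours with a probe (x axis), 1 point per paced array on which the gene was measured, coloured by time after pacing. Dotted lines mark 2-fold, which only Mtr reached, at 1.01 at P8. Eif5a is highest at P24, at 0.82, and Ahcy lies below sham at all 5 times.

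Genes whose 6 log2 ratios to Pre were most like those of a member were ranked by the root mean square difference over the 6 arrays. For Odc1 these were Hspa8, a constitutive Hsp70 chaperone gene, at 0.34 (11 probes), Rprd1b at 0.34 and the small heat shock protein gene Hspb7 at 0.39 (6 probes), where the median gene lay 1.28 away. For Sat1 they were Dnajb9, an endoplasmic reticulum co-chaperone gene, at 0.18, Anapc16, a subunit gene of the anaphase-promoting complex, at 0.18 and Bnip3, a mitophagy receptor gene, at 0.22, with the median gene at 0.77. For Amd2 they were Tfrc, the transferrin receptor gene, at 0.20, Camk2a, a calcium and calmodulin-dependent kinase gene, at 0.30 and Lmod3, a gene for an actin filament nucleator of muscle, at 0.35, with the median gene at 1.38. For Oaz1 they were Srprb, Traf4 and Pdcd5, each at 0.10, with the median gene at 0.43. Tfrc followed Amd2 at -1.27 at P0, -0.92 at P1, -1.16 at P3, -1.69 at P8 and -1.58 at P24, against -0.54 in sham. Since a flat profile has many near neighbours, the distances of Oaz1 are not comparable with those of Amd2. The named genes are the 3 nearest of 3179, so lying closer than the median gene was fixed by the choice. For Odc1 the profile matched was a mean of probes that disagreed in sham and at P1, with 1 probe at P3. A link between these genes and the members was not tested.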

How the data were processed

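Total RNA was hybridised to 6 spotted arrays with 2 channels, per the labels: muscle in channel 1 and the reference Pre in channel 2. The deposited table holds log10 ratios of 13872 probes, 1 for each array, without intensities, so signal over background is unknown, and the number of arrays limits precision. The base was read from 52 cells at the log10 rounding residue. The scanner and the authors' normalisation are not given in the sources used here. Exact zeros (201 to 1762 an array) and values shared within a run of 289 probes (0 to 154 an array) were set to missing. Log2 ratios were formed and centred on the median of each array. Of 6609 probes with 1 symbol, 6599 matched the GRCm38.p6 RefSeq gene table by Entrez ID, which gave names and coordinates; start sequences are RefSeq's. Probes of a gene were averaged, and arrays were subtracted. Named genes were all member probes, list genes 2-fold from sham or Pre, and the 3 genes nearest each member by root mean square difference; the other pathway neighbours were named after their values were seen. Members and lists were chosen with earlier results of these data known. The steps were run on simulated data whose noise was far smaller than the spread of these arrays, which checks the code and not the precision of the values. Python 3.11.15, numpy 2.4.6, pandas 2.3.3 and matplotlib 3.10.9 were used. Alternatives kept zeros, used probes on both arrays, took probe medians, scaled arrays to a common robust SD, left out centring, centred per run of 289 probes, lowered the threshold to 1.5-fold or, chosen after seeing the data, added Oaz1-ps probes to Oaz1.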

Additional observations from a re-analysis of the deposited data

Results flagged for a closer look

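The Odc1 difference from sham had opposite signs at different times: the gene mean stood at -0.26 at P1 and at 1.55 at P24 in log2 units. The difference between these times was not tested, since each had 1 array. The P1 value was smaller than its probe SD of 0.35, at -0.01 on probe 4688 and -0.51 on probe 10141. After scaling all arrays to the same robust SD, the P1 value was 0.41.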

How the results depend on the processing

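No paired analysis was possible because each group had 1 array. No result reversed a called direction. Of the 60 member values (differences from sham, ratios to Pre and steps between paced arrays), 53 kept their sign under every alternative run. The exceptions, none of them called, were the Odc1 differences from sham at P1 and P3, the Sat1 step from P1 to P3, the Oaz1 step from P3 to P8 and the Amd2 steps from P0 to P1, P1 to P3 and P8 to P24. Much of this count was fixed in advance. With at most 2 probes a member, the probe median equals the mean. Scaling cannot turn the sign of a ratio to Pre, and using probes on both arrays could change only Odc1 comparisons with P3. The count is therefore no measure of precision. The counts of called members depended on the settings as follows. Scaling arrays to a common robust SD gave 2 members 2-fold from sham at P0 and 2 at P1, in place of 1 and 0. Against Pre it gave 3 at P0, 2 at P1 and 1 at P3, in place of 1, 0 and 2. Zeros kept as values gave 1 member 2-fold from Pre at P3, because the Odc1 mean became 0.75. A 1.5-fold threshold gave 2 members from sham at P0, 1 at P1 and 2 at P3, and from Pre 3 at P0, 1 at P1 and 3 in sham. The other 70 recomputed counts, those at P8 and P24 among them, stayed within 1.5 times the reported ones. Those from probe medians could not differ. Over the alternatives run the P24 difference from sham ranged from 1.47 to 1.55 for Odc1 and from -1.34 to -1.27 for Amd2, and the P8 difference of Sat1 from 1.12 to 1.57. Sham and Pre were 1 array and 1 kind of RNA, so their own spread is not known.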
